A study of Mus musculus with 6 samples.

Results

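The genes described here form the molecular machinery by which white blood cells hold on to the vessel wall and to the matrix: the integrin subunits, the selectins, their ligands and the proteins that switch integrins on. The rule takes them by name: every gene whose symbol reads as an integrin alpha or beta subunit, and 15 named adhesion genes (Icam1, Icam2, Vcam1, Sele, Selp, Selplg, Cd44, Cd47, F11r, Jam2, Jam3, Madcam1, Fermt3, Tln1 and Tln2). It found 39 of the 15454 genes in the count table, of which 25 were integrin subunits and 14 were other adhesion genes. The remaining names it found, Itgad and Madcam1, appear only in the FPKM table (fragments per kilobase of transcript per 1000000 fragments), where they were listed at 0 in all 6 livers.

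Livers came from male C57BL/6 mice aged 8 to 10 weeks in which 75% of the liver was subjected to warm ischemia followed by reperfusion, the model of hepatic ischemia/reperfusion (I/R) injury. The I/R group (n = 3 livers) received the vehicle solution, and the I/R+Rk2 group (n = 3 livers) received ginsenoside Rk2, a saponin from ginseng, both before the operation and when perfusion began. By the methods of the work, these mice had the higher of the Rk2 doses tested in vivo. Both groups therefore had the same operation. No liver without ischemia was analysed here, so no value below is a change from a healthy liver. The work reported milder liver injury in mice given Rk2, and the part of this in the values below was not tested. The sequencing libraries were made from the whole tissue, and the question put to them was how liver RNA differed under Rk2.

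Leukocytes leave the blood in steps. Selectins on endothelial cells and platelets catch leukocytes through sugar-bearing ligands and let them roll, integrins on the leukocyte are then activated from inside by talin and kindlin-3 and bind the immunoglobulin-family ligands ICAM-1 and VCAM-1, and junctional molecules take part in the passage between endothelial cells. An integrin is a pair of one alpha and one beta chain, and the pairing sets which ligand is bound. In the reperfused liver these molecules are best known for the recruitment of neutrophils and monocytes, while other integrins anchor hepatocytes, stellate cells and endothelial cells to matrix.

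Total counts ran from 16809613 to 35618074 per library. Levels are given as counts per 1000000 of the scaled library size (CPM), on which a count of 0, which allows up to 3 counts, allows a level of up to 0.0888 CPM in I/R+Rk2 replicate 2 and up to 0.184 CPM in I/R+Rk2 replicate 3, the extremes of the 6 libraries. They are listed in the order of replicates 1, 2 and 3, and changes are given as the log2 fold change of I/R+Rk2 over I/R with its standard error (SE). A gene was called with an adjusted p below 0.05 in edgeR's quasi-likelihood test with Benjamini-Hochberg adjustment over all 12411 genes tested. Nothing in the labels says more of the replicates than that each was a liver sample, and the p-values measure the spread between these livers. Hepatocyte markers ran against the leukocyte genes described below: 6 of 10 were higher and 1 of 10 was lower in I/R+Rk2, and their summed level was 67100 to 78100 CPM in I/R and 101000 to 125000 CPM in I/R+Rk2. Their part in the results was not tested.

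Promoters of the members were read from RefSeq (GRCm38.p6, the release of the files' mm10 build), as the 250 bases before the annotated start. Of the 39 genes, 26 had an entry, with 29 windows between them, whether the gene was lower, higher, not passed or not tested. Those of Itgam, the alpha chain of the Mac-1 integrin of neutrophils and monocytes (chr7:128062390-128062639, plus strand), and of the endothelial selectin genes Sele (chr1:164047984-164048233, plus strand) and Selp (chr1:164115014-164115263, plus strand) are shown because they stand for the leukocyte side and the endothelial side of the same contact. Capitals mark the letters TGANTCA of the AP-1 motif and the letters GAGGAA, or TTCCTC on the other strand, at the core of sites bound by PU.1, a transcription factor of myeloid cells.
Itgam: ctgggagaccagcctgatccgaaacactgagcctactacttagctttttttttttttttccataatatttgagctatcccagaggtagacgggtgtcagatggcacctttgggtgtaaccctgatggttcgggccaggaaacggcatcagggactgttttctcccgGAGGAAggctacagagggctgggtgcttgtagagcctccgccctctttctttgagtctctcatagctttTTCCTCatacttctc
Sele: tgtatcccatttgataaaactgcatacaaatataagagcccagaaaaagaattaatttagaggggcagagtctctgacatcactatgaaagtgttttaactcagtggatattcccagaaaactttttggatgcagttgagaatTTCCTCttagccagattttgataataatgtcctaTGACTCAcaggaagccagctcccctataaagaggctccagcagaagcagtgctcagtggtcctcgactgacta
Selp: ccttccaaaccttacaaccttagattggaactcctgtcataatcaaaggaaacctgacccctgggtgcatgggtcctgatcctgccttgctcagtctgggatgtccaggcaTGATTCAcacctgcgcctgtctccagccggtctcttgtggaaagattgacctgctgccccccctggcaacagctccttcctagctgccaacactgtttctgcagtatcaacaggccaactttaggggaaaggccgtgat

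The Itgam window held the PU.1 core letters at 2 places and no AP-1 match, the Sele window held 1 match of each kind, and the Selp window held 1 AP-1 match. Across the members the PU.1 core letters were present in 12 of 26 genes (46.2%), against 25.9% of the 27025 genes with a window in the reference. These were Itgam, Sele, F11r, Cd44, Tln1, Itgb1, Itgb6, Itgav, Itga2b, Itga3, Itga5 and Itga11. Among the leukocyte integrin genes with a window Itgam alone held the letters, and Itga4, Itgax and Itgb7 did not. Fermt3 did not hold them either. AP-1 letters were present in 4 of 26 (15.4%; Sele, Selp, F11r and Itgax), against 7.82% of all genes. The strict κB consensus GGGRNNYYCC, searched on both strands like the others, was in none of the 26 genes and in 8.23% of all genes. Sites that depart from these letters were not counted, and Vcam1 had no window. The absence of a match therefore does not show that a promoter lacks κB sites. In the members no AP-1 match overlapped a PU.1 match, and such matches describe letters in a window, not binding.

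Of the 39 genes, 34 had enough counts for the test. Itgae, Itga2, Itga10, Itga11 and Itgb8 did not, with 0 to 19 counts in any liver. Of the 34 tested, 21 were lower in I/R+Rk2, 3 were higher and 10 did not pass. Among all genes tested, 23.7% were lower and 20.3% were higher. Of the members, 18 were lower by more than 2-fold and 1 was higher by more than 2-fold, against 11.4% and 3.17% of all genes. The 3 I/R livers all lay above the 3 I/R+Rk2 livers for 22 members (30.3% of all genes) and all below them for 4 members (27.1% of all genes). The median log2 fold change was -1.05 over the tested members and -0.01 over all genes. With scaling by library size alone the median of all genes moved to -0.17 and 72.5% of all calls were lower, against 53.9%, and the members then gave 21 lower and 2 higher. Some members were admitted to the test mainly by their counts in I/R, so these counts describe the 34 and not all 39. The heat map of members by liver shows the pattern: the darkest blue is in Itgam, Itgax and Selplg, followed by the other leukocyte integrins, Cd44, Itgb3, Itgb6 and Fermt3, and paler blue in Sele, Selp, Icam1 and Vcam1.

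**Figure D1:**
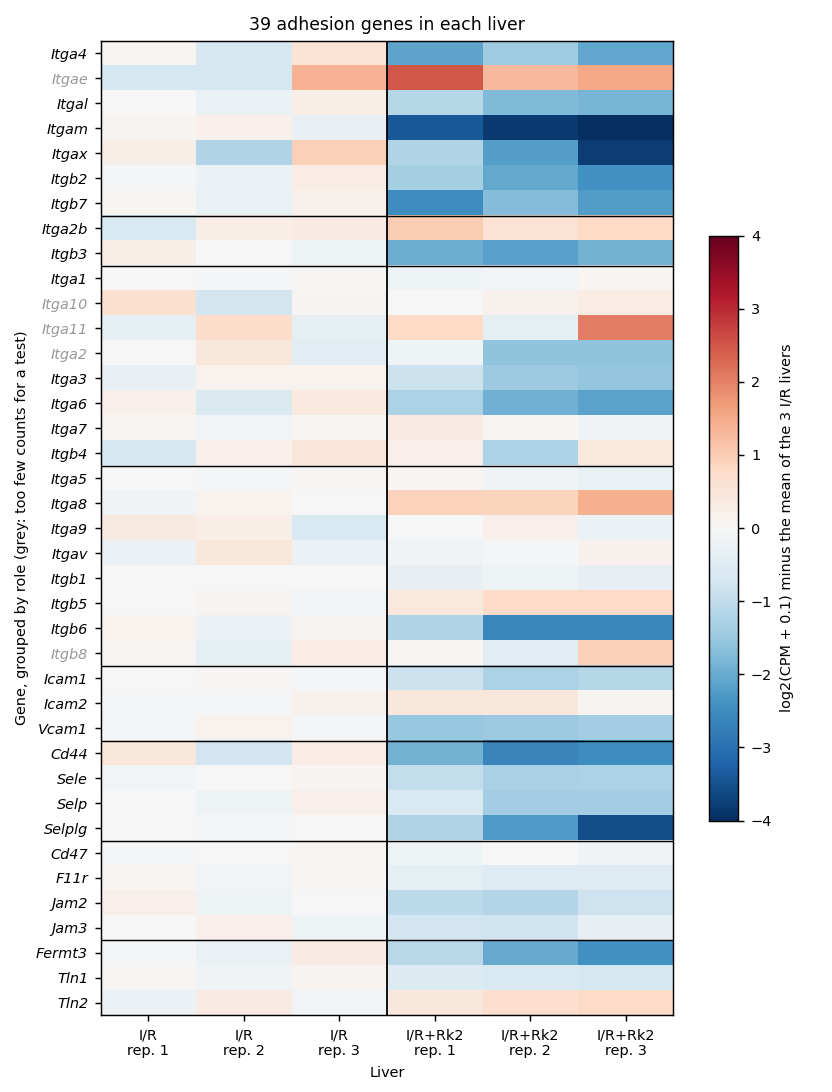
Heat map of the 39 adhesion genes (rows, grouped by role) in the 6 livers (columns), coloured by log2(CPM + 0.1) minus the mean of the 3 I/R livers. Itgam, Selplg and Itgax reach the deepest blue in the I/R+Rk2 livers, and Itga8, Itgb5, Itga2b and Tln2 are redder in all 3 of them than in any I/R liver.

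The leukocyte integrin subunits had the lowest median change of the 8 roles into which the members were divided. All 6 that were tested were lower in I/R+Rk2, each by more than 2-fold, with a median log2 fold change of -2.15. Their summed level, with the untested Itgae included, was 82.3, 76.6 and 86.2 CPM in the I/R livers and 21.9, 14.7 and 11.2 CPM in the I/R+Rk2 livers.

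Itgam (chr7:128062640-128118491) encodes CD11b, which pairs with the beta2 chain to bind ICAM-1, fibrinogen and complement. Its level was 36.2, 38.2 and 27.0 CPM in I/R and 3.11, 2.28 and 1.41 CPM in I/R+Rk2. On these counts no I/R+Rk2 liver reached a level near that of any I/R liver, and the log2 fold change was -3.87 (SE 0.27, adjusted p = 0.00024), a 14.6-fold fall. The size of that fall is uncertain, because the counts may leave out reads of a second Itgam row described below. Itgb2 (chr10:77530252-77565708) encodes that beta2 chain, CD18, without which none of the CD11 integrins reaches the surface. It stood at 27.1, 24.0 and 34.6 CPM in I/R and at 11.2, 6.81 and 5.16 CPM in I/R+Rk2 (log2 fold change -1.88, SE 0.28, adjusted p = 0.00262). Itgal (chr7:127296260-127335138) encodes CD11a, the alpha chain of LFA-1 on all leukocytes. Its level was 11.5, 9.83 and 14.2 CPM in I/R against 5.25, 3.38 and 3.13 CPM in I/R+Rk2 (log2 fold change -1.59, SE 0.24, adjusted p = 0.00247). In both Itgb2 and Itgal the groups were apart, with I/R+Rk2 replicate 1 the highest of its group.

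Itgax, the alpha chain CD11c of dendritic cells and some macrophages, was scarce, with 1.56, 0.507 and 2.63 CPM in I/R and 0.504, 0.207 and 0 CPM in I/R+Rk2. The groups only just missed each other, at 0.507 and 0.504 CPM. It passed the test (log2 fold change -2.61, SE 0.86, adjusted p = 0.0431) but in only 6 of 14 alternatives, and the adjusted p rose to 0.0986 and 0.149 when I/R replicates 1 and 3 were left out in turn, and to 0.131 and 0.0781 when I/R+Rk2 replicates 2 and 3 were. Itgal, Itgam and Itgax lie on the same strand of chromosome 7, as does Itgad, which was listed at 0.

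The alpha4 and beta7 chains bind VCAM-1 and the gut addressin and are found on lymphocytes, monocytes and eosinophils. Itga4 was at 3.39, 2.03 and 4.74 CPM in I/R and 0.672, 1.13 and 0.675 CPM in I/R+Rk2, so that the groups did not overlap (log2 fold change -2.0, SE 0.39, adjusted p = 0.00648). Itgb7 was at 2.55, 1.99 and 2.71 CPM in I/R and 0.336, 0.651 and 0.430 CPM in I/R+Rk2 (log2 fold change -2.30, SE 0.32, adjusted p = 0.00197). Itgae, the other partner of beta7, which marks tissue-resident T cells, had 0, 0 and 8 counts in I/R and 19, 10 and 6 counts in I/R+Rk2 and was not tested.

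The general leukocyte genes of these livers moved in the same direction as the leukocyte integrins. All 5 pan-leukocyte markers were lower, with a summed level of 222 to 285 CPM in I/R and 73.4 to 131 CPM in I/R+Rk2, and Ptprc, which encodes the pan-leukocyte surface protein CD45, changed by -2.82 (SE 0.30, adjusted p = 0.000834). Of 10 neutrophil markers 9 were lower, with a sum of 567 to 681 CPM against 104 to 240 CPM. All 10 monocyte markers were lower, with a median log2 fold change of -4.34. Their sum of 1650 to 1960 CPM against 1130 to 1190 CPM was mostly Fn1, which hepatocytes also make, and without Fn1 (left out after seeing the data) it was 218 to 252 CPM against 13.4 to 23.2 CPM. Of 10 Kupffer cell markers 2 were lower, with a sum of 89.8 to 139 CPM against 73.6 to 88.8 CPM. T and NK cell markers (1 of 10 tested, not passed) summed to 0.834 to 2.42 CPM in I/R and 1.17 to 3.78 CPM in I/R+Rk2, and B cell markers (0 of 5 tested) to 0.261 to 0.957 CPM and 0.983 to 1.26 CPM. Several T, NK and B cell genes had 0 counts in some livers, Nkg7 and Pax5 among them in all 3 I/R livers. In tissue of this kind fewer cells of a type and less RNA per cell cannot be told apart, for any member described here.

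The share of each integrin chain was therefore also set against its partner within the same liver, as a ratio of FPKM, which compares genes per length. Of 16 pairs planned, 14 had a value in every liver, and in 9 of these the groups did not overlap, at the smallest exact permutation p that 3 against 3 allows (two-sided p = 0.1, adjusted p = 0.156 over the 14 pairs). None could therefore pass 0.05. The share of other gene pairs without overlap was not computed. Of single genes, 30.3% had all I/R livers above the I/R+Rk2 livers and 27.1% had them all below. The 9 pairs are therefore not read as a trait of integrin partners. The ratio of Itgam to Itgb2 was 0.980, 0.895 and 0.451 in I/R and 0.255, 0.192 and 0.172 in I/R+Rk2, a log2 difference of -1.85. The ratio of Itgal to Itgb2 moved the other way, from 0.222, 0.204 and 0.213 to 0.274, 0.255 and 0.534, a log2 difference of 0.65. From the counts, an alternative added after seeing the data, the log2 difference was -2.01 for Itgam and only 0.33 for Itgal. Neither ratio of counts overlapped between the groups. Per Itgb2 transcript, every I/R+Rk2 liver thus held less Itgam and more Itgal than any I/R liver.

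Itgam occupied 2 rows of the FPKM table, and its exons overlap those of another annotated gene on the same strand, Gm49368, so its FPKM is uncertain. The counts hold 1 row for Itgam. Whether that row takes in the reads of the second FPKM row was not tested, so its count values and count ratios are uncertain too. The first row was at 11.2, 7.92 and 5.85 FPKM in I/R and 1.15, 0.428 and 0.257 FPKM in I/R+Rk2. The second was at 2.56, 0.138 and 6.88 FPKM in I/R and 1.16, 0.628 and 0.288 FPKM in I/R+Rk2, where the groups overlapped (log2 fold change -0.94, adjusted p = 0.236 by limma, against -2.53 and 0.00027 for the first row). Summed, the rows were at 13.7, 8.05 and 12.7 FPKM in I/R and 2.31, 1.06 and 0.545 FPKM in I/R+Rk2, without overlap. With both rows summed, the ratio of Itgam to Itgb2 was 1.20, 0.910 and 0.982 in I/R and 0.514, 0.474 and 0.364 in I/R+Rk2, which still did not overlap (log2 difference -1.20, exact permutation p = 0.1). Set against Ptprc, Itgb2 was relatively higher in I/R+Rk2, with ratios of 2.25, 3.04 and 1.75 against 6.34, 3.70 and 4.05 (log2 difference 1.0, exact permutation p = 0.1). For Itgam against Ptprc the answer depended on the unit. The groups overlapped on FPKM, with the first row (log2 difference -0.85, exact permutation p = 0.2) and with both rows (-0.20, exact permutation p = 0.9), but the ratio of counts, added after seeing the data, was 1.33, 2.23 and 0.829 in I/R and 0.698, 0.588 and 0.590 in I/R+Rk2, without overlap (log2 difference -1.12, exact permutation p = 0.1).

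**Figure D2:**
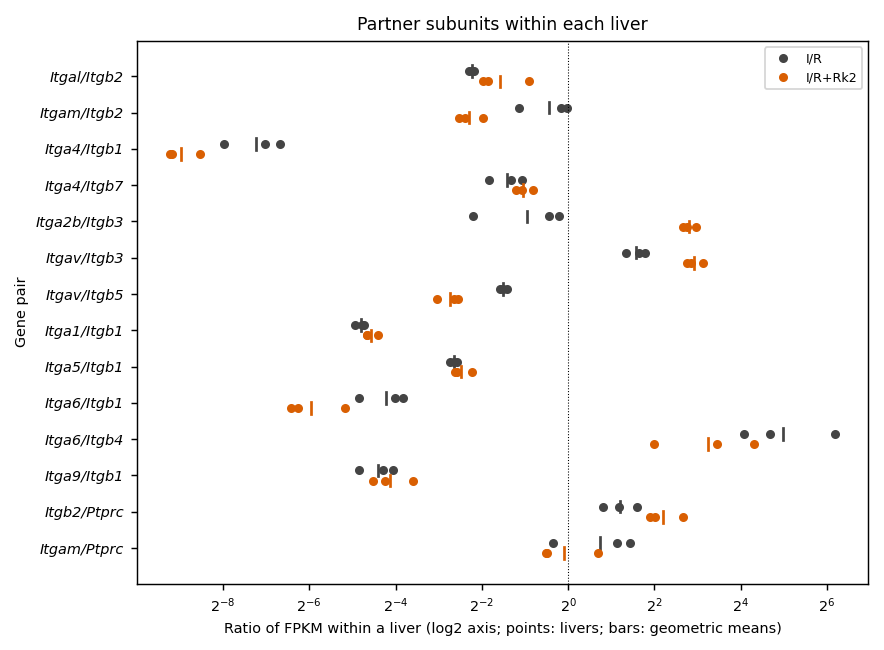
Ratio of FPKM of the genes of a pair within each liver (horizontal log2 axis) for the 14 pairs with a value in every liver. Points are livers, dark for I/R and orange for I/R+Rk2, and bars are geometric means. Itga2b/Itgb3 lies furthest apart, below 1 in all 3 I/R livers and between 6.34 and 7.83 in the I/R+Rk2 livers, and Itgam/Itgb2 lies to the left in I/R+Rk2.

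The selectins, their leukocyte ligands and 2 of the 3 endothelial immunoglobulin ligands were lower as well, each by more than 2-fold. Sele (chr1:164048234-164057677) encodes E-selectin, which activated endothelium makes after cytokine exposure. It was at 15.0, 16.4 and 17.5 CPM in I/R and 8.15, 6.63 and 6.75 CPM in I/R+Rk2, with no overlap (log2 fold change -1.18, SE 0.13, adjusted p = 0.000918). Its neighbour Selp (chr1:164115264-164150026) encodes P-selectin, stored in endothelial cells and platelets. It was at 41.7, 35.9 and 48.0 CPM in I/R and 27.2, 15.7 and 15.8 CPM in I/R+Rk2 (log2 fold change -1.10, SE 0.23, adjusted p = 0.00882). I/R+Rk2 replicate 1 lay between the I/R livers and the other I/R+Rk2 livers.

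Selplg encodes PSGL-1, the leukocyte ligand of the selectins. Its level was uniform in I/R, at 21.4, 20.3 and 21.2 CPM, and spread in I/R+Rk2, at 9.12, 4.29 and 1.72 CPM. The log2 fold change of -2.03 (SE 0.47, adjusted p = 0.0125) no longer passed when I/R+Rk2 replicate 2 was left out (adjusted p = 0.0509). Cd44, a receptor for hyaluronan and a selectin ligand on leukocytes, was at 66.9, 28.7 and 59.6 CPM in I/R and 13, 7.70 and 8.66 CPM in I/R+Rk2 (log2 fold change -2.40, SE 0.35, adjusted p = 0.00224). Even the lowest I/R liver, replicate 2, was above every I/R+Rk2 liver.

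Vcam1 (chr3:116109949-116129688) encodes the endothelial ligand of the alpha4 integrins. It was at 38.1, 43.3 and 37.3 CPM in I/R and 13.8, 14.3 and 14.9 CPM in I/R+Rk2, with little spread in either group (log2 fold change -1.47, SE 0.10, adjusted p = 0.00024). Icam1 (chr9:21015985-21028817) encodes the ligand of the beta2 integrins, made by endothelium, hepatocytes and leukocytes in inflammation. It was at 55.5, 56.4 and 52.9 CPM in I/R and 30.1, 22.9 and 24.6 CPM in I/R+Rk2 (log2 fold change -1.09, SE 0.12, adjusted p = 0.000834). Icam2, which endothelial cells carry without stimulation, did not pass, at 2.03 to 2.47 CPM in I/R and 2.33 to 3.03 CPM in I/R+Rk2 (log2 fold change 0.36, SE 0.21, adjusted p = 0.201). The 10 endothelial markers were divided, with 4 lower and 3 higher and a summed level of 211 to 216 CPM in I/R and 170 to 210 CPM in I/R+Rk2. Their median log2 fold change was -0.18, and its part in the selectin and ligand values was not tested.

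Of the junctional molecules and Cd47, 2 of 4 were lower and 2 did not pass. Jam2, a component of endothelial junctions, was at 21.3, 15.8 and 18.2 CPM in I/R and 8.87, 8.11 and 10.3 CPM in I/R+Rk2, just past 2-fold (log2 fold change -1.02, SE 0.15, adjusted p = 0.00254). F11r, which encodes JAM-A of epithelial and endothelial tight junctions, fell from 80.2 to 90.5 CPM to 60.2 to 67.0 CPM (log2 fold change -0.46, SE 0.09, adjusted p = 0.00608). Jam3 had 8 to 19 counts in any liver and did not pass (log2 fold change -0.77, SE 0.35, adjusted p = 0.110). Cd47, the ubiquitous signal that restrains phagocytes, was at 55.8, 56.9 and 60.6 CPM in I/R and 51.7, 58.0 and 52.8 CPM in I/R+Rk2, and these ranges overlapped (log2 fold change -0.09, SE 0.09, adjusted p = 0.409).

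Of the cytoplasmic activators, Fermt3 encodes kindlin-3, the kindlin of blood cells. It was at 6.93, 6.09 and 9.29 CPM in I/R and 3.36, 1.72 and 1.29 CPM in I/R+Rk2 (log2 fold change -1.79, SE 0.35, adjusted p = 0.00668). The groups were apart, and I/R+Rk2 replicate 1 was again the highest of its group. Tln1, the talin of most tissues, fell from 80.8 to 95 CPM to 54.7 to 60.1 CPM (log2 fold change -0.63, SE 0.09, adjusted p = 0.00235). Its relative Tln2 went the other way, from 3.55 to 5.31 CPM to 5.72 to 7.18 CPM (log2 fold change 0.62, SE 0.20, adjusted p = 0.0393). That rise passed in 9 of 15 alternatives, and its adjusted p rose to 0.111 and 0.122 when I/R replicates 1 and 3 were left out in turn, and to 0.101 and 0.0972 when I/R+Rk2 replicates 2 and 3 were.

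**Figure D3:**
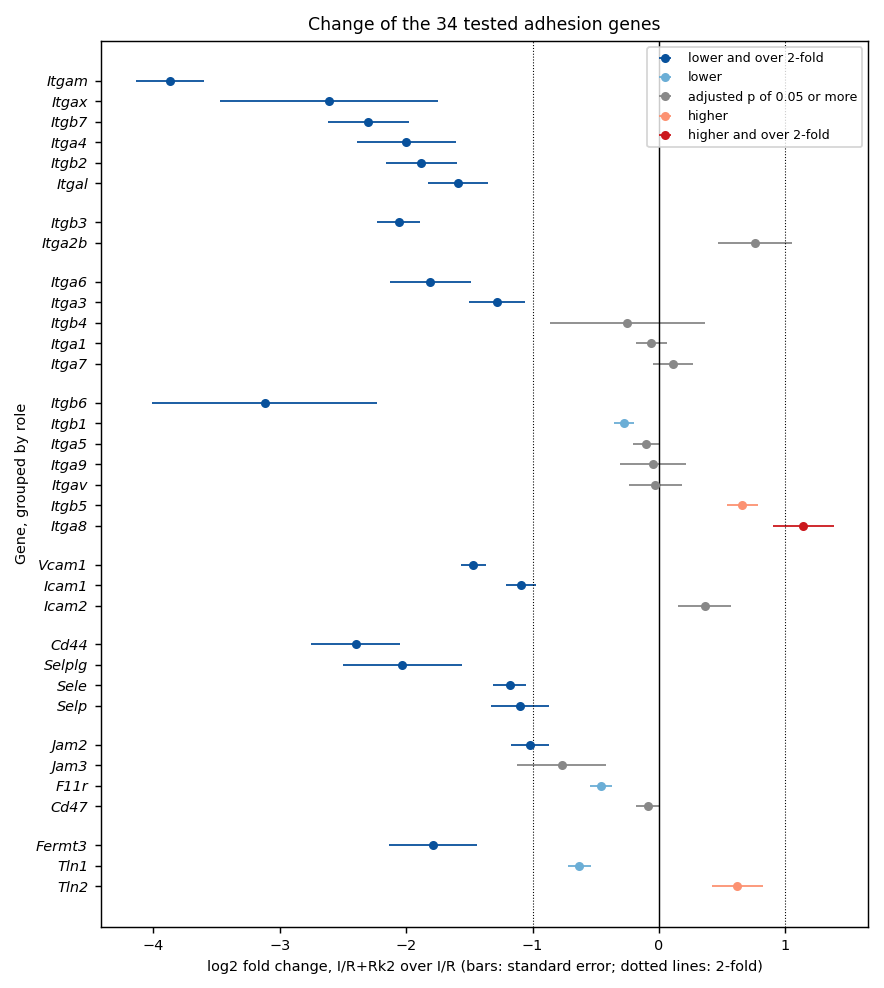
Log2 fold change of I/R+Rk2 over I/R (horizontal axis) for the 34 tested adhesion genes, grouped by role, with bars for the standard error and dotted lines at 2-fold. The leukocyte integrins at the top and the selectin group lie beyond the left dotted line, the matrix-binding integrins fall on both sides of 0, and Itga8 alone lies beyond the right dotted line.

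The matrix-binding integrins did not share a direction. Of the 7 tested genes for fibronectin, RGD and beta1 receptors, 2 were lower, 2 were higher and 3 did not pass. Among all genes tested 23.7% were lower and 20.3% were higher, so this split is not read as a trait of these chains. The summed level of this role, with the untested Itgb8 included, was 282 to 304 CPM in I/R and 271 to 293 CPM in I/R+Rk2. Itgb1, the beta chain shared by most of the matrix receptors, had the highest FPKM of all members in both groups, 49.8 ± 2.93 (SD, n = 3) in I/R and 36.3 ± 1.64 (SD, n = 3) in I/R+Rk2. Its counts gave 183, 185 and 184 CPM in I/R and 148, 160 and 148 CPM in I/R+Rk2, a small difference without overlap (log2 fold change -0.28, SE 0.08, adjusted p = 0.0232). It passed in 12 of 17 alternatives. The adjusted p was 0.0528, 0.0589 and 0.0715 without I/R replicates 1, 2 and 3 in turn, 0.0720 without I/R+Rk2 replicate 3 and 0.0904 with the trend on transcript length removed.

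Itgb5 and Itga8 were the integrin chains that rose. Itgb5, which pairs with the alphav chain to bind vitronectin, was at 35.3 to 40.6 CPM in I/R and 51.2 to 64.8 CPM in I/R+Rk2 (log2 fold change 0.66, SE 0.12, adjusted p = 0.00469). On FPKM its change was smaller and did not pass (log2 fold change 0.33, adjusted p = 0.0599 by limma). Itga8, a partner of beta1 found on stellate cells and smooth muscle, was at 1.3, 1.60 and 1.48 CPM in I/R and 2.86, 2.78 and 4.11 CPM in I/R+Rk2 (log2 fold change 1.14, SE 0.24, adjusted p = 0.00886). The rise passed in all 15 alternatives that tested it, although its log2 size was 0.95, under the 2-fold limit, without I/R+Rk2 replicate 3, the highest liver. Stellate markers were lower or not passed, 4 and 4 of 8, with a sum of 159 to 201 CPM in I/R and 118 to 128 CPM in I/R+Rk2.

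Itga5, the fibronectin receptor chain, Itga9, a receptor chain for tenascin and VCAM-1, and Itgav, the vitronectin receptor chain, did not pass, with log2 fold changes of -0.10 (SE 0.11), -0.05 (SE 0.26) and -0.03 (SE 0.21). Itgb6, an epithelial chain that activates TGF-β, had 11, 11 and 14 counts in I/R and 4, 0 and 0 counts in I/R+Rk2, or 0.573, 0.429 and 0.558 CPM and 0.168, 0 and 0 CPM. It was called lower (adjusted p = 0.0262), but in only 7 of 14 alternatives, and the adjusted p was 0.0758, 0.0540 and 0.0755 without I/R replicates 1, 2 and 3 in turn, and 0.0757 and 0.0627 when I/R+Rk2 replicates 2 and 3 were left out in turn. At so few counts the size of its fall could not be set.

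Among the collagen and laminin receptor chains, 2 of the 5 tested were lower and 3 did not pass, beside 23.7% lower among all genes tested. Itga6, a laminin receptor chain of epithelium, endothelium and platelets, was at 10.6, 6.17 and 12.2 CPM in I/R and 3.78, 2.40 and 2.03 CPM in I/R+Rk2 (log2 fold change -1.81, SE 0.32, adjusted p = 0.00478). Itga3, another laminin receptor chain, was at 19.8, 26.7 and 26.7 CPM in I/R and 13.2, 8.70 and 8.23 CPM in I/R+Rk2 (log2 fold change -1.28, SE 0.22, adjusted p = 0.00376). Itga1, the collagen receptor chain of sinusoidal and stellate cells, was at 10.2 to 11.2 CPM in I/R and 9.54 to 11.4 CPM in I/R+Rk2 (log2 fold change -0.06, SE 0.12, adjusted p = 0.703). Itga7 and Itgb4 also did not pass (adjusted p = 0.603 and 0.764), and Itga2, Itga10 and Itga11 had at most 13 counts in any liver. Cholangiocyte markers, which could bear on the epithelial chains, were lower in 3 of 6, with a sum of 165 to 231 CPM against 84.0 to 117 CPM, and their part was not tested.

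Set against Itgb1 within each liver, the alpha chains divided. The ratio to Itgb1 was 0.0620, 0.0346 and 0.0700 for Itga6 in I/R and 0.0278, 0.0130 and 0.0117 in I/R+Rk2, a log2 difference of -1.72. For Itga4 the log2 difference was -1.75, and the groups did not overlap either. Itga1 rose slightly against Itgb1 (log2 difference 0.23, groups apart), while Itga5 and Itga9 overlapped between groups. The exact permutation p was 0.1 for the first 3 of these.

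The beta3 integrins held the pair with the widest difference of the 14. Itgb3, the beta chain of the platelet fibrinogen receptor and of the alphav vitronectin receptor of endothelium and macrophages, was at 11.1, 9.37 and 8.29 CPM in I/R and 2.35, 2.04 and 2.52 CPM in I/R+Rk2 (log2 fold change -2.06, SE 0.17, adjusted p = 0.000397). Itga2b, its platelet partner, was at 1.46 to 2.91 CPM in I/R and 3.43 to 4.71 CPM in I/R+Rk2. The groups did not overlap, but the rise did not pass (log2 fold change 0.76, SE 0.29, adjusted p = 0.0687). The FPKM ratio of Itga2b to Itgb3 was 0.218, 0.860 and 0.730 in I/R and 7.83, 6.79 and 6.34 in I/R+Rk2, a log2 difference of 3.76. From the counts, an alternative added after seeing the data, the log2 difference was 2.87, again without overlap. Itgav also stood higher against Itgb3 in I/R+Rk2 (log2 difference 1.33 from FPKM and 2.05 from counts) and lower against Itgb5 (-1.24 and -0.65).

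Platelet markers were set beside Itgb3. Of the 10, 7 were tested, 1 was higher (Ppbp, log2 fold change 0.68, SE 0.21, adjusted p = 0.0365) and 6 did not pass, and their sum was 10.0 to 14.8 CPM in I/R and 12.7 to 16.6 CPM in I/R+Rk2. Several had few counts, such as Gp1bb with 1 to 34 and Gp5 with 5 to 18 in any liver, which limits what the test could call. Their part in the Itgb3 values was not tested.

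Itga2b and Itgav gave different answers from counts and from FPKM. On log2(FPKM + 1) in limma, Itga2b passed as higher (log2 fold change 0.87, adjusted p = 0.00935), and Itgav passed as lower (log2 fold change -0.69, adjusted p = 0.00681) although its counts did not differ by the test. Counts and FPKM of a gene differ by the mean length of the transcripts that the authors' assembly assigned, so that length was computed for each liver from CPM over FPKM, scaled on Sele, the member with a single annotated transcript (2912 bases). The measure was made for the 29 members with at least 10 counts in every liver, after the data had been seen. Of the 28 others than Sele, whose length is fixed by the scaling, 7 varied by less than 5% between livers, and the measure gave lengths near the longest annotated transcript for several, such as 2514 to 2532 bases for Icam1 (annotated 2535) and 5780 to 5808 bases for Itgb3 (annotated 5784). Itga1 was as stable, at 5970 to 6013 bases, but its longest annotated transcripts are of 10967 and 3341 bases. The authors' assembly may thus have used transcripts other than those annotated here.

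The implied length of Itga2b was 3500, 1994 and 2780 bases in I/R and 1483, 1434 and 1473 bases in I/R+Rk2, a log2 difference of -0.88. The annotated transcripts of Itga2b include one of 3437 bases, one of 2880 bases and one of 968 bases. The implied length of Itgav moved the other way, from 3194, 4917 and 3136 bases to 5963, 6912 and 5432 bases, a log2 difference of 0.73, and its annotated transcripts include 7054, 6788, 2777 and 1738 bases. In both genes the groups did not overlap, which restates the disagreement of counts and FPKM for which they were taken up and was given no test. The other 26 members, Sele aside, moved between -0.28 and 0.29, and 4 of them (Selp, Tln1, F11r and Itgb5) also did not overlap. For this measure the share of all genes without overlap was not computed, so these differences in length are not read as a trait of the members. These lengths are StringTie's apportionment of reads to transcripts and not a direct measurement of any isoform.

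**Figure D4:**
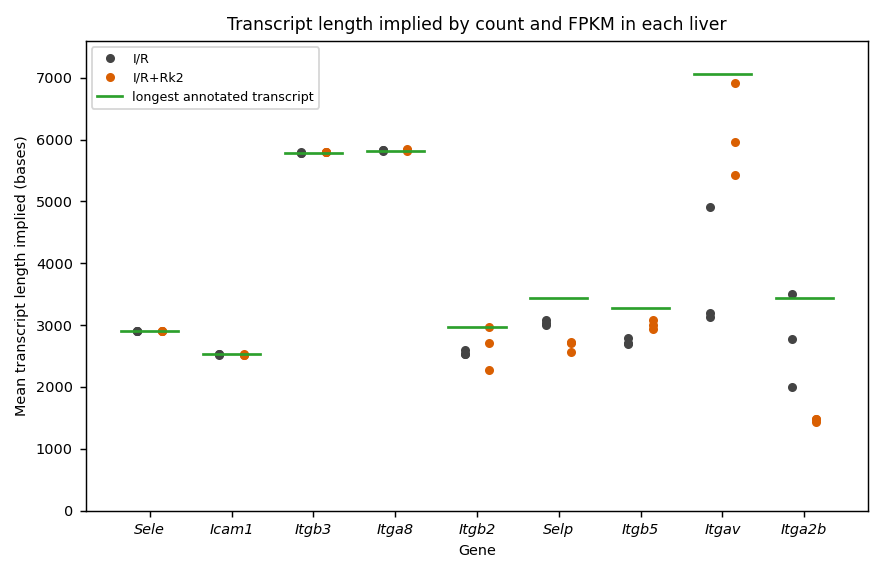
Mean transcript length in bases implied by count and FPKM (vertical axis) for 9 members in each liver, dark for I/R and orange for I/R+Rk2, with a green bar at the longest annotated transcript. The points of Icam1, Itgb3 and Itga8 fall together on the bar, while Itgav rises from 3136 to 4917 bases to 5432 to 6912 bases and Itga2b drops from 1994 to 3500 bases to 1434 to 1483 bases.

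The I/R+Rk2 livers were not alike in depth of the fall. In 15 of the 21 lower members (71.4%) replicate 1 was the highest of the 3 I/R+Rk2 livers, against 55.8% of the 2938 lower genes in all. Replicate 1 also had the highest neutrophil sum of its group, 240 CPM against 130 and 104 CPM, and the highest pan-leukocyte sum, 131 CPM against 85.0 and 73.4 CPM. The part of this in the spread of the members was not tested. Without that liver 21 members were lower, 18 of them by more than 2-fold, the same numbers as with it.

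Other genes of these pathways were counted in the same way, beside the 23.7% of all genes that were lower and the 20.3% that were higher. Of 29 other genes for integrin activation and the adhesion complex, 14 were lower and 3 were higher, with a median log2 fold change of -0.62. Fgr, a Src-family kinase of myeloid cells that acts under beta2 integrins, fell by 2.93 on the log2 scale (SE 0.30, adjusted p = 0.000707). Lyn, a kinase of the same family, fell by 0.82 on the log2 scale (SE 0.09, adjusted p = 0.000753). Of 26 listed genes for capture, selectin ligands and transmigration, 22 were tested, 15 were lower and 2 were higher. Pvr and Podxl, an immunoglobulin-family receptor and a sialomucin of endothelium, had log2 fold changes of -1.44 and -1.29 (SE 0.14 and 0.13, adjusted p = 0.000568 and 0.000753).

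Of 24 matrix and counter-receptor ligands, 21 were tested, 13 were lower and 0 were higher. The smallest p-values belonged to Nid1 and Lamc1, basement membrane genes that encode nidogen and the laminin gamma1 chain, with log2 fold changes of -1.83 (SE 0.10, adjusted p = 0.000212) and -1.70 (SE 0.14, adjusted p = 0.000366). Tgfb1, whose latent form is held by alphav integrins, had a log2 fold change of -1.57 (SE 0.14, adjusted p = 0.000445). All 6 sheddases, the proteases that cut adhesion molecules from the cell surface, were lower, 5 of them by more than 2-fold. Adam17, which cuts many surface proteins, fell from 23.5, 22.4 and 27.6 CPM to 6.51, 5.89 and 5.53 CPM (log2 fold change -2.03, SE 0.13, adjusted p = 0.00024). Adam10 and Adam8 had log2 fold changes of -1.87 and -2.30 (SE 0.15 and 0.25, adjusted p = 0.000366 and 0.000902), and all 3 genes were without overlap between the groups.

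The strand setting of the counting was not given in the sources used here, and some members share exons with genes on the other strand. Fermt3 overlaps Trpt1, Itga4 overlaps Cerkl, Tln1 overlaps Creb3 and Itga7 overlaps Mettl7b. Icam1, Vcam1, Selp, Itga8 and Jam3 overlap antisense genes, and Itgav and Itgb4 overlap other genes on the opposite strand. On the same strand, Itga1 overlaps Gm49395 and Itga10 overlaps Gm42957. Reads from all these neighbours cannot be told apart from the members' own.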

How the data were processed

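Liver RNA was sequenced on an MGI platform from 250 ng per liver. According to the submitters' processing notes, reads were checked with FastQC 0.11.5, aligned to mm10 with HISAT2 2.2.1 and assembled with StringTie 1.3.3. The annotation and strand setting are not given in the sources used here. The authors deposited whole-number counts per gene, not normalised, and FPKM per gene. The counts look like StringTie estimates rounded up and not like directly counted reads: over counts of 1 to 20 in genes with 1 annotated transcript, the number implied by FPKM equalled the count after rounding up in 76.9% to 81.4% of cases, and after rounding to the nearest in 58.4% to 65.1%. The lowest counts may thus be inflated. All columns of single livers were matched to samples by name, and the column of counts summed over the livers was not used.

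The counts were tested in R 4.3.3 with edgeR 4.0.16: filterByExpr with its defaults, TMM scaling and the quasi-likelihood F test of I/R+Rk2 against I/R on all 6 libraries, with no covariate, adjusted by Benjamini-Hochberg over 12411 genes. A call needed an adjusted p below 0.05, and the 2-fold limit is the one the study used. SE is the absolute log2 fold change divided by the square root of F. FPKM was tested with limma 3.58.1 on log2(FPKM + 1) for genes with a mean FPKM of at least 1, a scale that understates changes of low genes. DESeq2 1.42.0 served as an alternative. Single values were compared by exact permutation, two-sided. Positions and transcripts are from GENCODE M21 (GRCm38). Marker sums are sums of CPM. Genes outside the set were named as at most the 3 with the smallest p of each list, together with Ptprc, and every member of the set is named. Fn1, Nkg7 and Pax5 were named after their values were seen. Some genes that the rule takes are not reported here. The script for the tests was tested on simulated data.

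Total counts limit the precision at low values, and the limits given for a count of 0 cover counting error only. Replicates of a group differed by far more than sampling noise (chi-square per degree of freedom of 31.4 or more), and each was kept as 1 sample. The members and lists were chosen with earlier results of these data known. The planned comparison of protein tails was not made.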

Additional observations from a re-analysis of the deposited data

How the results depend on the processing

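Over 17 alternatives the members gave 557 values, of which 501 kept direction and side of the threshold, 30 lost a call, 7 gained one and 19 changed sign, none of the last being called. With scaling by library size alone, 0 members were higher past 2-fold and the members' median was -1.22, while the median of all genes moved to -0.17 and 72.5% of calls were lower, against 53.9%. Without a filter the median was -0.77. In limma, log2(FPKM + 1) of genes averaging at least 1 gave 1 higher member, 10 lower and 0 higher past 2-fold, a median of -0.90 and 901 genes past 2-fold, against 1813. With a pseudocount of 0.1 it gave 1 higher member. Without a filter it gave 10 and 0 past 2-fold, a median of -0.38 and 921 genes. Of the calls in these 3 FPKM tests 69.5%, 69.6% and 72.8% were lower. Leaving out each replicate in turn gave 18 to 21 lower and 2 to 3 higher members, 13 to 18 and 0 to 1 past 2-fold, medians of -1.12 to -0.95 and 1543 to 2012 genes past 2-fold. The lowest number lower past 2-fold, 13, came without I/R+Rk2 replicate 2, and 0 higher past 2-fold came without I/R+Rk2 replicate 3. DESeq2 gave 21 lower and 3 higher members, as in the edgeR test.

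With the replicate number as a block, 19 members were lower and 3 higher, 16 and 1 past 2-fold, with 1690 genes past 2-fold. The deviations of same-numbered livers correlated at -0.0559, 0.00522 and -0.0579. The labels name no link between these livers beyond the number, and with 3 livers per group such values cannot exclude one.

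Among members that were not called, the sign changed with the length trend removed for Itga1 (0.307), Itga5 (0.0318), Itga9 (0.219), Itgav (0.224) and Cd47 (0.0798). Itga7 was at -0.0487 with library size alone, at -0.0019 in both tests on log2(FPKM + 1) and at -0.0232 with a pseudocount of 0.1. With upper-quartile scaling Itga9 was at 0.00474 and Itgav at 0.0191. Leaving out single livers gave -0.0291 to 0.219 for Itga7, -0.583 to 0.25 for Itgb4, -0.302 to 0.129 for Itga9 and -0.157 to 0.24 for Itgav. The cause was not tested. Low counts limit Itgax, Itgb6, Itgb4 and Jam3 most.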
